A study of Homo sapiens with 4 samples.

Results

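The genes that encode RNA polymerases I, II and III, their general transcription factors and Mediator were followed after knockdown of hTrmt13. They were chosen by symbol: every entry of the count table that begins with POLR1, POLR2 or POLR3, with GTF2 or GTF3, or with TAF or MED followed by a digit. This gave 110 genes of 28930 in the table, of which 107 had enough reads to be tested. The knockdown group held 2 libraries of MDA-MB-231 cells given an siRNA against hTrmt13. The control group held 2 libraries of the same line that are labelled control. MDA-MB-231 is a human triple-negative breast cancer line with mesenchymal features, and hTrmt13, encoded by TRMT13, is a methyltransferase that modifies the ribose of tRNA. The RNA sequencing asked which transcripts depend on hTrmt13. The siRNA sequences, their number and dose, and the time of harvest were not given in the sources used here, and all libraries come from this 1 line.

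Polymerase I transcribes the large ribosomal RNA, polymerase II the messenger RNAs and many small nuclear RNAs, and polymerase III the tRNAs, the 5S RNA and other short RNAs. Each enzyme is brought to its promoters by its own factors: SL1 (TBP with the TAF1A to TAF1D proteins) for polymerase I, TFIIA, TFIIB, TFIID, TFIIE, TFIIF and TFIIH for polymerase II, and TFIIIA, TFIIIB and TFIIIC for polymerase III. Mediator joins DNA-bound activators to polymerase II through head, middle, tail and kinase modules, and is known in breast cancer cells as a coactivator of nuclear receptors.

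Total counts were 10606149 and 13098985 in the knockdown libraries and 9777267 and 12851510 in the control libraries, so that 1 CPM (a count scaled to the library's size) rests on about 10 to 13 reads. TRMT13 had 3.52 and 4.79 CPM in the knockdown libraries, against 14.9 and 18.9 CPM in the control libraries, and was lower by 2.02 on the log2 scale (SE 0.34, adjusted p = 0.0399 in the quasi-likelihood test of edgeR, with Benjamini-Hochberg adjustment over all genes). Among markers of the line, VIM had 1804 and 1845 CPM in the knockdown and 1769 and 1821 CPM in the control libraries. Of 6 luminal and receptor markers, ESR1 and PGR had no read and CDH1 had 2 reads in all. The other 3 had mean levels of 2.52, 4.52 and 144.5 CPM in the knockdown, against 4.95, 8.60 and 118 CPM in the control group, and none of them was called. Of the other 4 mesenchymal markers, SPARC and S100A4 fell (log2 fold changes -1.20 and -1.59, edgeR adjusted p = 0.0476 each), and CD44 and AXL had lower values in the knockdown without a call (-0.79 and -0.72). The 4 blood markers had between 0 and 27 reads in all. Of the fibroblast and endothelial markers, COL1A2 had 1 read, 2 others had mean levels of 28.4 and 12.9 CPM in the knockdown, against 39.1 and 24.1 CPM in the control group, without a call, and CDH5 fell, with 0.07 ± 0.11 CPM in the knockdown and 5.18 ± 1.97 CPM in the control group (SD, n = 2 each). The part of these differences in the results was not tested. Replicates of a group differed far beyond counting noise, with a chi-square per degree of freedom of 44.5 in the knockdown and 40.4 in the control group. The labels do not say that replicates came from separate cultures, so a p-value here covers no more than the scatter of these 4 libraries, which may be technical. Bulk RNA cannot tell a change in RNA per cell from a change in which cells were sampled.

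Across all genes the test called 389 of 13022 at an adjusted p under 0.05, which is 2.99%: 1.03% were higher in the knockdown and 1.96% were lower. Of the 107 tested genes of the transcription machinery it called 4, which is 3.74%, a share near that background and no result about these genes as a group. Among them POLR2D rose, and TAF10 and MED12L fell. DESeq2 called 8 higher and 3 lower among the same genes, which is 10.3% in all, against 8.67% of all genes (3.52% higher and 5.15% lower). At an unadjusted p under 0.05, 18 of the 107 were higher and 6 lower, against 24% of all tested genes in either direction (11.5% higher and 12.5% lower). POLR2D, TAF10 and MED12L have different roles: POLR2D is a subunit of the stalk that projects from polymerase II, TAF10 is a histone-fold subunit shared by TFIID and the SAGA coactivator, and MED12L is a paralog of the Mediator kinase-module subunit MED12.

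POLR2D encodes the Rpb4-like subunit, which with POLR2G forms the polymerase II stalk. It had 55.3 and 56.8 CPM in the knockdown libraries, against 15.1 and 19.7 CPM in the control libraries. Both knockdown libraries lay far above both control libraries, and the 2 knockdown values were nearly equal. The log2 fold change was 1.68 (SE 0.26, edgeR adjusted p = 0.0357), a 3.21-fold difference, and the gene was also called under all 11 alternative settings.

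TAF10 had 9.41 and 9.29 CPM in the knockdown libraries, against 24.5 and 26.8 CPM in the control libraries. Within each group its libraries lay close together, and the groups were far apart. The gene was 2.74-fold lower in the knockdown (log2 fold change -1.46, SE 0.27, edgeR adjusted p = 0.0440). The call was lost without control replicate 2 and without knockdown replicate 2. Exons of ILK on the opposite strand cover 38.9% of its exon bases, and ILK had higher values in the knockdown, with 265 and 217 CPM in the knockdown and 169 and 159 CPM in the control libraries (log2 fold change 0.56, not called).

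MED12L had 6.28 and 7.64 CPM in the knockdown libraries, against 19.1 and 28.3 CPM in the control libraries. Every knockdown value was below every control value, and the control libraries were the less even pair. The gene was 3.40-fold lower (log2 fold change -1.77, SE 0.33, edgeR adjusted p = 0.0452), and the call was lost with scaling by library size alone and without control replicate 2. Exons of the opposite strand, IGSF10 among them, cover 30.1% of its exon bases, and IGSF10 had 1.43 and 1.198 CPM in the knockdown and 0.73 and 1.78 CPM in the control libraries.

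**Figure D1:**
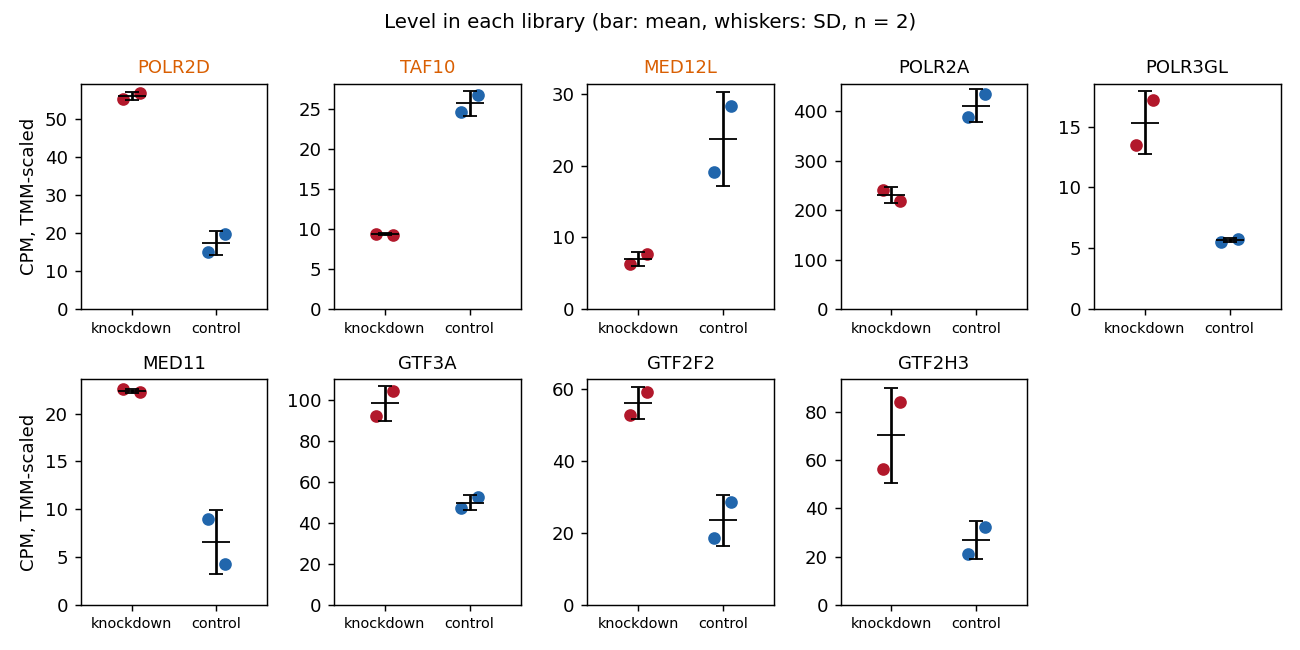
Level (CPM, TMM-scaled, vertical axes starting at 0) of 9 genes in each knockdown and control library, with the mean and SD of 2 libraries; names of the 3 called genes shown are in orange. The 9 genes are among those with the smallest p in the edgeR test, so their groups were likely to lie apart. In all 9 panels both knockdown libraries lie on one side of both control libraries, as they do in 54.3% of all tested genes.

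The promoters of POLR2D, TAF10 and MED12L were taken from the RefSeq set (GRCh38.p14, 250 bases before to 50 after the start) and are printed because these genes carry called changes. Capitals mark exact matches on either strand to the ETS motif CCGGAAG, the GC box GGGCGG and the CCAAT box. Other forms of these motifs were not searched.
POLR2D, chr2:127858106-127858405, minus strand: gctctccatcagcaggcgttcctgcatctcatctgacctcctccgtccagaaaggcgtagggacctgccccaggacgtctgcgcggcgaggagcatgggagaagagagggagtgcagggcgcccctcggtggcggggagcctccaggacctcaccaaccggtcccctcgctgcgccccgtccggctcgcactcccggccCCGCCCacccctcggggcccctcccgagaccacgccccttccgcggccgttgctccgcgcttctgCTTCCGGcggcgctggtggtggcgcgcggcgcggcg
TAF10, chr11:6612167-6612466, minus strand: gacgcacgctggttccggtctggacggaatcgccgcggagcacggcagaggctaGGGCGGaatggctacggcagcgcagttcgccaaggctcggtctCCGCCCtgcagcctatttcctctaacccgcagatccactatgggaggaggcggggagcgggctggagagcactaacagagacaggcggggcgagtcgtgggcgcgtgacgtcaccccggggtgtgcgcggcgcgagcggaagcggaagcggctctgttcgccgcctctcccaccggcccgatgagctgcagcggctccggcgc
MED12L, chr3:151085414-151085713, plus strand: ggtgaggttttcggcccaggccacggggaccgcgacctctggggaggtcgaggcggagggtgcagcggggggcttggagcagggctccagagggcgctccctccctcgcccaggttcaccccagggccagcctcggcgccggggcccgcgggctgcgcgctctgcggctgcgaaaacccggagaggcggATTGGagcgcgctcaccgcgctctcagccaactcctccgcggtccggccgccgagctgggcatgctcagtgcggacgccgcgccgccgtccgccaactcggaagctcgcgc
All 3 are rich in G and C (73.7% in POLR2D, 70.0% in TAF10 and 75.3% in MED12L), and none holds a TATAAA box. Of the exact motifs searched, the POLR2D promoter holds 1 CCGGAAG close to its start and 1 GC box, that of TAF10 holds 2 GC boxes, and that of MED12L holds 1 CCAAT box and no GC box.

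Among 84 promoters of these genes in that set, 44.0% hold CCGGAAG, against 19.3% of the promoters of 9686 tested genes and 10.7% of all 27305 promoters. AAGATGGC, the core of the YY1 motif, was found in 13.1%, against 5.46% and 3.03%. GC boxes were found in 60.7% against 70.5% of the tested genes, CCAAT in 32.1% against 36.6%, CACGTG in 16.7% against 10.1%, and TATAAA in 7.14% against 5.32%. Genes with CCGGAAG had a median log2 fold change of 0.32 (37 genes) and those without these exact letters of 0.015 (45 genes). Over all tested genes the same 2 medians were 0.07 and -0.02. Of the motifs named here, CCGGAAG had the widest gap between these medians among the members. Members with CACGTG went the other way, with a median of -0.091 (14 genes) against 0.13 without it (68 genes). For GC boxes the medians were 0.049 with and 0.151 without. They were 0.105 and 0.102 for both CCAAT and AAGATGGC, and 0.122 and 0.103 for TATAAA. These are counts of letters in a fixed window, with no test, and CCGGAAG and AAGATGGC do not share their sequence.

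**Figure D2:**
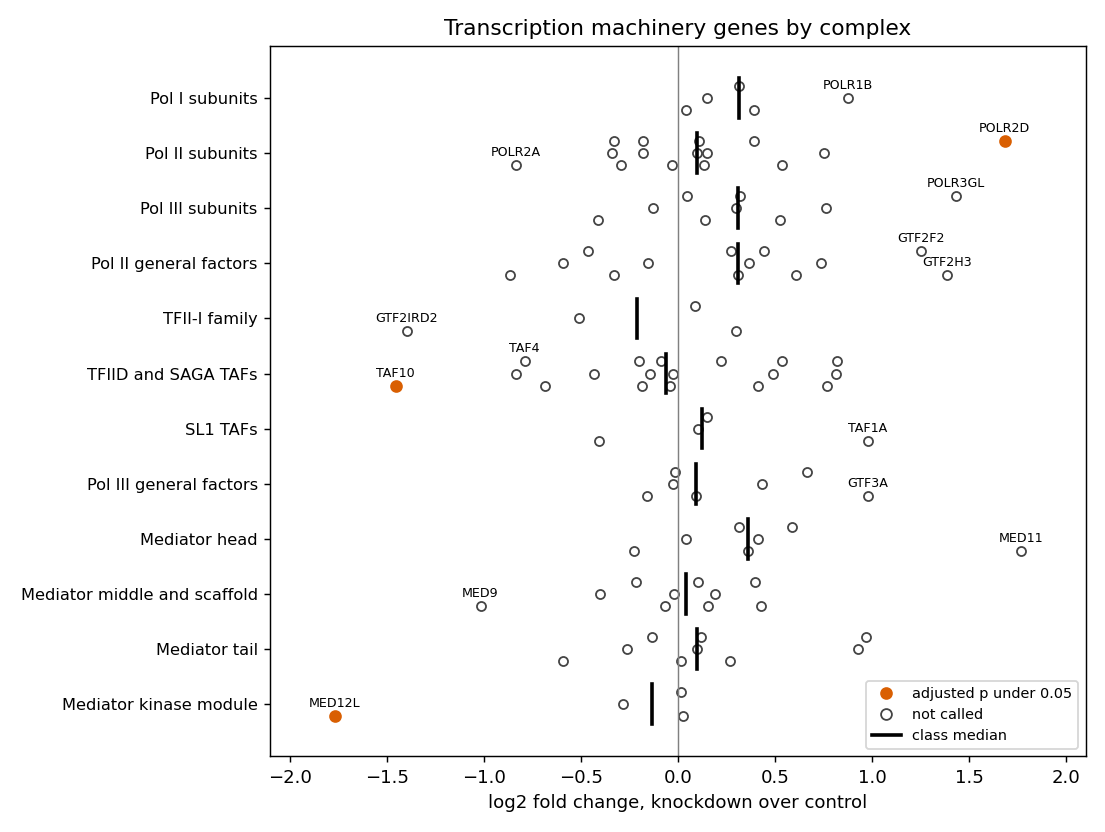
Log2 fold change (knockdown over control, horizontal axis) of the tested genes shown by complex, with the median over all tested genes of each class; filled points are POLR2D, TAF10 and MED12L, with an adjusted p under 0.05. Most points lie within 1 of 0, and the largest values on both sides, of MED11 and MED12L, are both from Mediator, in its head and kinase modules.

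As a whole the 107 genes had a median log2 fold change of 0.10, against 0.01 over all tested genes, with 65 positive and 42 negative. The groups did not overlap in 38 genes that were higher in the knockdown and in 15 that were lower, which is 35.5% and 14.0%, against 27.5% and 26.8% of all tested genes. Between the groups, 43 of the 107, some of them among these, differed by less than 1.2-fold, as did 4594 of all 13022 tested genes. The summed counts of all 110 genes of the transcription machinery made up 0.654% and 0.657% of all counts in the knockdown libraries, against 0.572% and 0.632% in the control libraries. By enzyme the medians were 0.32 for the 5 polymerase I subunits found by symbol, 0.10 for the 15 polymerase II subunits and 0.31 for the 10 polymerase III subunits. Outside these 5 are CD3EAP, TWISTNB and ZNRD1, polymerase I genes with other symbols (log2 fold changes 1.24, -0.81 and 0.06, none called by edgeR). No test of a difference between classes was run, because genes of a class are not replicates.

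**Figure D3:**
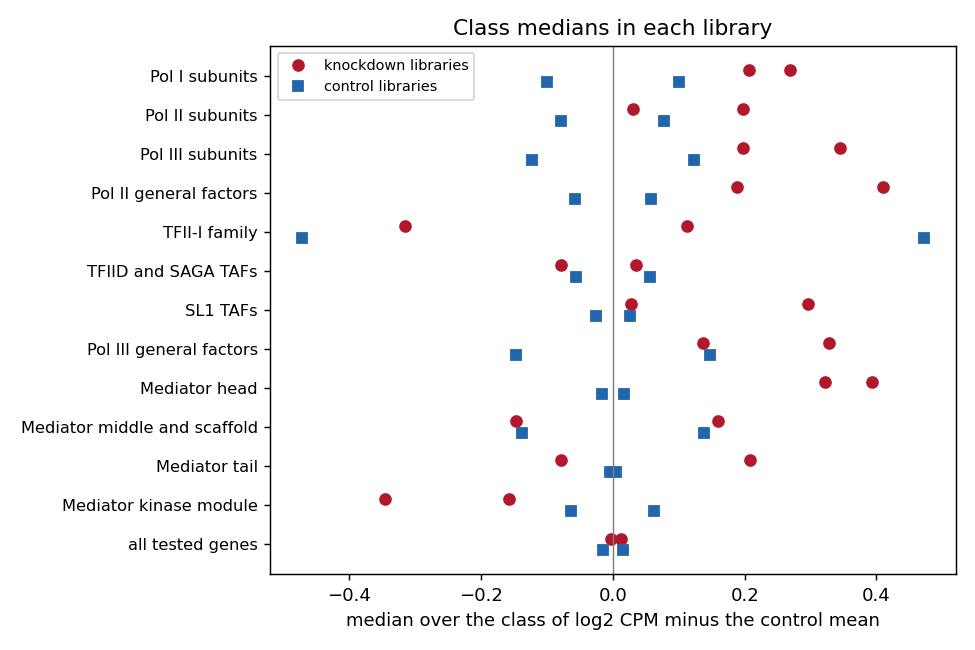
Median over each class of log2 CPM minus the mean of the control libraries (horizontal axis), for each of the 4 libraries; the 2 control values are symmetric about 0 by construction. Both knockdown libraries lie above both control libraries for polymerase I and III subunits, polymerase II general factors, SL1 and the Mediator head, and below them for the kinase module; in the TAFs of TFIID and SAGA, the TFII-I family, and the Mediator middle and tail the 2 knockdown libraries lie on opposite sides of 0.

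All 5 genes named as polymerase I subunits had positive log2 fold changes, between 0.04 and 0.88, none called by edgeR or DESeq2, with 1 at an unadjusted p under 0.05. Of all tested genes, 50.4% were positive and 24% were at that p. POLR1B, the second-largest subunit and part of the active centre, had 71.6 and 73.5 CPM in the knockdown libraries, against 34.9 and 44.0 CPM in the control libraries. The groups were well apart, but the difference of 0.88 on the log2 scale missed the threshold (SE 0.24, edgeR adjusted p = 0.0925). POLR1A, the largest subunit, had 208 and 171 CPM in the knockdown and 171 and 197 CPM in the control libraries, which overlap, so the 2 large subunits differed in their values (log2 fold changes 0.88 and 0.04). POLR1C and POLR1D are also subunits of polymerase III, so they count for 2 enzymes. POLR1C had 49.1 and 42.2 CPM in the knockdown and 34.5 and 38.8 CPM in the control libraries, and POLR1D 65.3 and 64.6 CPM in the knockdown and 63.4 and 53.8 CPM in the control libraries. POLR1E, whose yeast counterpart acts in initiation and elongation, had 50.8 and 61.8 CPM in the knockdown and 34.6 and 51.3 CPM in the control libraries, and the groups overlapped.

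POLR2A encodes the largest subunit of polymerase II, whose C-terminal repeats are phosphorylated during the transcription cycle. It had 242 and 219 CPM in the knockdown libraries, against 388 and 435 CPM in the control libraries. Both knockdown libraries were below both control libraries by much more than the gap within either pair. The difference was -0.84 on the log2 scale, a 1.79-fold lower level (SE 0.20, edgeR adjusted p = 0.0746), and DESeq2 called it. POLR2B, the second-largest subunit, had 138 and 200 CPM in the knockdown and 188 and 236 CPM in the control libraries, which overlap (log2 fold change -0.33). POLR2C, which pairs with POLR2J in the core of the enzyme, had 88.4 and 109 CPM in the knockdown, against 48.96 and 68.0 CPM in the control libraries (log2 fold change 0.75, not called). Subunits of 1 enzyme thus ranged in their log2 fold changes between -0.84 and 1.68.

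The partner of POLR2D in the stalk, POLR2G, had 65.2 and 59.5 CPM in the knockdown and 56.1 and 57.6 CPM in the control libraries (log2 fold change 0.13), far less than the 1.68 of POLR2D. POLR2I, which in yeast acts in start-site choice and proofreading, had 39.9 and 28.2 CPM in the knockdown and 22.6 and 24.3 CPM in the control libraries, which do not overlap. Its exon bases lie to 79.6% under exons of the opposite strand, TBCB among them, and TBCB had 121 and 103 CPM in the knockdown and 132 and 134 CPM in the control libraries. POLR2J had 37.5 and 37.4 CPM in the knockdown, just below 43.1 and 41.5 CPM in the control libraries. POLR2M, whose locus gives the Mediator-sensitive Gdown1 protein, had 16.9 and 25.4 CPM in the knockdown and 20.5 and 22.8 CPM in the control libraries.

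The 5 subunits shared by all 3 polymerases had a median log2 fold change of 0.11, with 4 positive and 1 negative and none called by edgeR or DESeq2 or at an unadjusted p under 0.05. POLR2L had the largest positive value, with 163 and 130 CPM in the knockdown and 102 and 121 CPM in the control libraries. POLR2K was the only negative one, with 36.1 and 43.3 CPM in the knockdown and 48.4 and 48.9 CPM in the control libraries. POLR2E, POLR2F and POLR2H had log2 fold changes of 0.11, 0.15 and 0.10. Without these 5, the polymerase II subunits had a median of -0.10.

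Of the 10 polymerase III subunits, 8 had positive log2 fold changes, 6 had groups that did not overlap with the knockdown higher, and 1 (POLR3A) had groups that did not overlap with the knockdown lower. Over all tested genes these shares were 50.4%, 27.5% and 26.8%. POLR3GL had 13.5 and 17.2 CPM in the knockdown libraries, against 5.53 and 5.80 CPM in the control libraries. The groups did not overlap, and the difference of 1.43 on the log2 scale missed the threshold (SE 0.31, edgeR adjusted p = 0.0599), while DESeq2 called it. POLR3D, of the subcomplex that in yeast acts in termination and reinitiation, had 35.4 and 32.5 CPM in the knockdown, against 17.5 and 22.4 CPM in the control libraries (log2 fold change 0.76, not called). Its partner POLR3E had 68.1 and 52.9 CPM in the knockdown, against 39.4 and 44.7 CPM in the control libraries (log2 fold change 0.52, not called). These 2 subunits form one heterodimer and both had higher values in the knockdown.

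POLR3A, the largest subunit of polymerase III, had 87.2 and 86.3 CPM in the knockdown, against 118 and 113 CPM in the control libraries (log2 fold change -0.41, not called). POLR3B, the second-largest, had 41.0 and 43.3 CPM in the knockdown and 38.0 and 38.5 CPM in the control libraries (log2 fold change 0.14). The large subunits of polymerases II and III, POLR2A and POLR3A, therefore both had lower values in the knockdown, and POLR1A overlapped between the groups. The initiation trimer POLR3C, POLR3F and POLR3G had log2 fold changes of 0.05, 0.32 and 0.30, none of them called, and POLR3K, of the termination subunits, of -0.13. CRCP, a polymerase III subunit outside the symbol rule, had 61.2 and 44.6 CPM in the knockdown, against 43.2 and 39.0 CPM in the control libraries (log2 fold change 0.36, not called). The polymerase I subunit TWISTNB, also outside it, had 18.1 and 22.3 CPM in the knockdown, against 26.1 and 44.5 CPM in the control libraries (log2 fold change -0.81, not called).

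Of the 13 tested general factors of polymerase II, none was called by edgeR, 3 were at an unadjusted p under 0.05 (all higher) and DESeq2 called 2, both higher. Over all tested genes, 24% were at that p (11.5% higher), and DESeq2 called 8.67% (3.52% higher). GTF2F2, the smaller TFIIF subunit, had 53.0 and 59.2 CPM in the knockdown, against 18.5 and 28.5 CPM in the control libraries. The groups were far apart (log2 fold change 1.25, SE 0.29, edgeR adjusted p = 0.0679), and DESeq2 called the gene. GTF2F1, the larger TFIIF subunit, had 242 and 188 CPM in the knockdown, against 157 and 160 CPM in the control libraries, a smaller log2 fold change of 0.44. GTF2H3, a core TFIIH subunit, had 56.2 and 84.0 CPM in the knockdown, against 21.2 and 32.3 CPM in the control libraries. Its knockdown libraries were uneven but both lay above the control libraries (log2 fold change 1.39, SE 0.32, edgeR adjusted p = 0.0684), and DESeq2 called it too.

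The rest of TFIIH differed less. GTF2H5, the small subunit that stabilises the complex, had 38.0 and 50.3 CPM in the knockdown, against 27.2 and 25.8 CPM in the control libraries (log2 fold change 0.74, not called), and GTF2H1 and GTF2H4 had log2 fold changes of 0.37 and 0.27. GTF2H2 and GTF2H2C are near-identical copies, with 73.7% and 81.3% of their 31-base words found in other genes, so their counts of 2.76 and 4.72 CPM and of 49.9 and 29.1 CPM in the knockdown, against 4.28 and 4.10 CPM and 30.6 and 21.3 CPM in the control libraries, are uncertain. The TFIIH helicase ERCC3, outside the symbol rule, had 55.3 and 59.3 CPM in the knockdown, against 103.8 and 104.2 CPM in the control libraries (log2 fold change -0.86, edgeR adjusted p = 0.0746; called by DESeq2). Values of TFIIH genes therefore pointed both ways.

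Both TFIIA genes had negative log2 fold changes with groups that overlapped. GTF2A1 had 24.8 and 50.5 CPM in the knockdown and 47.3 and 90.2 CPM in the control libraries, and GTF2A2 had 35.0 and 59.8 CPM in the knockdown and 56.3 and 86.6 CPM in the control libraries. The libraries of each group were uneven, with replicate 2 the higher in both groups. Within a replicate number the knockdown was lower for both genes. The log2 differences in replicates 1 and 2 were -0.92 and -0.83 for GTF2A1, and -0.68 and -0.53 for GTF2A2. GTF2B, which bridges TBP and polymerase II, had 49.6 and 54.9 CPM in the knockdown, against 81.9 and 62.4 CPM in the control libraries (log2 fold change -0.46, not called). The TFIIE subunits GTF2E1 and GTF2E2 had log2 fold changes of -0.33 and 0.31, neither called. GTF2A1L, a TFIIA gene of the germ line, had no read in any library.

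The TFII-I family, which shares the GTF2 symbol but acts as sequence-specific factors, had 4 tested genes and none called by edgeR or DESeq2 or at an unadjusted p under 0.05. GTF2I had 142 and 132 CPM in the knockdown and 148 and 110 CPM in the control libraries, and GTF2IRD1 had 65.4 and 55.4 CPM in the knockdown, against 46.6 and 51.8 CPM in the control libraries. GTF2IRD2 had 1.71 and 0.82 CPM in the knockdown and 5.01 and 1.70 CPM in the control libraries, and GTF2IRD2B had 4.28 and 2.47 CPM in the knockdown and 7.52 and 2.17 CPM in the control libraries. These 2 near copies share much of their sequence with other genes, and for both the groups overlapped.

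Among the 18 tested TAFs of TFIID and SAGA, 7 had positive and 11 negative log2 fold changes, with a median of -0.06. TAF10 was the called one, and 2 others were at an unadjusted p under 0.05 in each direction. Over all tested genes 11.5% were higher and 12.5% lower at that p. TAF7, which binds TAF1 and holds back its catalytic activity, had 157 and 173 CPM in the knockdown, against 98.7 and 95.1 CPM in the control libraries (log2 fold change 0.77, SE 0.21, edgeR adjusted p = 0.0901). TAF4, a scaffold of the TFIID core, had 23.3 and 21.5 CPM in the knockdown, against 36.5 and 40.8 CPM in the control libraries (log2 fold change -0.79, not called). TAF3, which binds the trimethylated histone mark of active promoters, had 22.7 and 16.6 CPM in the knockdown, against 11.2 and 11.1 CPM in the control libraries (log2 fold change 0.82, not called). In all 3 genes both knockdown libraries lay on one side of both control libraries, as in 54.3% of all tested genes.

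TAF10 forms histone-fold pairs with TAF3 or TAF8 in TFIID. TAF8 had 47.1 and 38.3 CPM in the knockdown and 52.9 and 45.1 CPM in the control libraries, which overlap, so the 3 genes of these pairs did not share 1 direction. The SAGA forms TAF5L and TAF6L had 16.7 and 19.6 CPM and 26.4 and 16.8 CPM in the knockdown, against 25.3 and 33.0 CPM and 32.0 and 26.2 CPM in the control libraries (log2 fold changes -0.68 and -0.43, neither called). TAF12, which like TAF10 serves both complexes, had 5.61 and 5.54 CPM in the knockdown, against 2.505 and 3.79 CPM in the control libraries (log2 fold change 0.81, not called). TAF11 and the RNA-binding protein TAF15 had log2 fold changes of 0.53 and 0.49 with groups that did not overlap. TAF1, TAF2, TAF5, TAF6 and TAF13 had log2 fold changes between -0.19 and 0.22, with groups that overlapped. The testis forms TAF1L and TAF7L had 18 and 4 reads over the 4 libraries and were not tested.

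Of the 4 SL1 genes of polymerase I, 1 was at an unadjusted p under 0.05, against 24% of all tested genes. None was called by edgeR or DESeq2. TAF1A had 13.6 and 16.6 CPM in the knockdown, against 7.10 and 8.20 CPM in the control libraries (log2 fold change 0.98, SE 0.30, edgeR adjusted p = 0.120). TAF1B had 28.7 and 44.9 CPM in the knockdown and 43.5 and 54.1 CPM in the control libraries, and the groups overlapped. TAF1C and TAF1D had log2 fold changes of 0.15 and 0.10, also with overlap.

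Of the 7 general factors of polymerase III, none was called by edgeR, 2 were at an unadjusted p under 0.05 (both higher) and DESeq2 called 1. The shares over all tested genes were 24% at that p (11.5% higher) and 8.67% by DESeq2. GTF3A encodes TFIIIA, the zinc-finger factor that serves the 5S RNA genes and binds the 5S RNA. It had 92.4 and 105 CPM in the knockdown, against 47.3 and 52.7 CPM in the control libraries. The pairs were tight and 1.97-fold apart (log2 fold change 0.98, SE 0.22, edgeR adjusted p = 0.0653), and DESeq2 called the gene. The TFIIIC subunits GTF3C3 and GTF3C6 had 38.0 and 47.0 CPM and 51.9 and 73.6 CPM in the knockdown, against 28.1 and 34.8 CPM and 35.6 and 43.7 CPM in the control libraries, both without overlap and neither called. The other TFIIIC subunits, GTF3C1, GTF3C2, GTF3C4 and GTF3C5, had log2 fold changes between -0.16 and 0.09.

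The 30 Mediator genes had a median log2 fold change of 0.07, with 19 positive and 11 negative, and MED12L was the only one called. Its modules differed in their values: the head had a median of 0.36 (7 genes), the middle with the scaffold MED14 of 0.04 (10 genes), the tail of 0.10 (9 genes) and the kinase module of -0.13 (4 genes). In the head, 5 of 7 genes had both knockdown libraries above both control libraries, and none the reverse. In the middle, 0 of 10 had the knockdown higher without overlap and 3 had it lower. The background for these counts is 27.5% and 26.8%.

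In the head, MED11 had 22.5 and 22.2 CPM in the knockdown, against 8.98 and 4.25 CPM in the control libraries. The knockdown libraries were nearly equal and the control libraries uneven (log2 fold change 1.77, SE 0.40, edgeR adjusted p = 0.0653), and DESeq2 called it. Exons of the opposite strand, CXCL16 among them, cover 36.9% of its exon bases. CXCL16 fell, with 0.95 and 0.67 CPM in the knockdown and 8.87 and 6.19 CPM in the control libraries (log2 fold change -3.21, edgeR adjusted p = 0.0296). MED22, which pairs with MED11, had 55.6 and 40.5 CPM in the knockdown, against 37.4 and 35.0 CPM in the control libraries (log2 fold change 0.41, not called). MED20 and its partner MED18 had log2 fold changes of 0.59 and 0.36, and MED6 of 0.31, all without overlap. The head subunits MED17 and MED8 overlapped between the groups, with -0.23 and 0.04.

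In the middle module MED9 had the smallest p, with 9.79 and 9.66 CPM in the knockdown, against 18.2 and 21.2 CPM in the control libraries (log2 fold change -1.02, SE 0.28, edgeR adjusted p = 0.0940). Both pairs were tight and about 1 log2 unit apart. MED10 had 17.0 and 22.2 CPM in the knockdown, just below 22.7 and 29.1 CPM in the control libraries. MED1, the subunit that binds nuclear receptors, had 190.1 and 215 CPM in the knockdown and 195 and 182 CPM in the control libraries (log2 fold change 0.10), and MED14, which joins the modules, had 44.7 and 58.8 CPM in the knockdown and 48.5 and 59.8 CPM in the control libraries. Neither differed beyond the spread within groups. MED4, MED7, MED19, MED21, MED26 and MED31 had log2 fold changes between -0.22 and 0.43, none called, and 58.3% of the exon bases of MED31 lie under TXNDC17 on the opposite strand.

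In the tail, MED29 had 108 and 79.0 CPM in the knockdown, against 48.96 and 49.3 CPM in the control libraries (log2 fold change 0.93, SE 0.25, edgeR adjusted p = 0.0888; called by DESeq2). MED30 had 14.9 and 12.4 CPM in the knockdown, against 6.26 and 7.66 CPM in the control libraries (log2 fold change 0.97, not called). MED27 went the other way in its values, with 14.6 and 17.2 CPM in the knockdown, against 21.7 and 26.3 CPM in the control libraries (log2 fold change -0.59, not called). MED27, MED28, MED29 and MED30 lie together in the upper tail, next to the head, and MED28 overlapped between the groups with 0.10. The activator-binding subunits MED15, MED16, MED23, MED24 and MED25 also overlapped, with log2 fold changes between -0.26 and 0.27.

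The kinase module, which docks reversibly on Mediator, consists of CDK8 or CDK19 with cyclin C and a MED12 and a MED13 form. MED12 had 94.0 and 78.6 CPM in the knockdown and 91.3 and 78.4 CPM in the control libraries, and MED13 had 112 and 178 CPM in the knockdown and 123.1 and 164 CPM in the control libraries. Neither differed beyond the spread between replicates, in contrast to the values of MED12L. MED13L had 107 and 118 CPM in the knockdown, against 144 and 129 CPM in the control libraries (log2 fold change -0.28, not called). The kinase CDK19, outside the symbol rule, had 5.33 and 9.59 CPM in the knockdown, against 16.2 and 24.8 CPM in the control libraries (log2 fold change -1.45, SE 0.40, edgeR adjusted p = 0.0939; called by DESeq2). Its paralog CDK8 had 16.5 and 20.8 CPM in the knockdown and 12.2 and 20.4 CPM in the control libraries, and CCNC 21.1 and 54.9 CPM in the knockdown and 34.4 and 71.5 CPM in the control libraries, both with overlap.

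Paralog pairs let the balance between related genes be read within a library. In 13 pairs with both genes tested, the log2 ratio of the first gene to the second was lower in both knockdown libraries in 6, higher in 1 and overlapping in 6. The order within a pair does not mark which gene has the higher level. The share without overlap, 7 of 13, is close to the 54.3% of single genes whose groups do not overlap. With 2 libraries a group an exact permutation test cannot go below p = 0.333, so none was run. MED12L over MED12 had log2 ratios of -3.87 and -3.33 in the knockdown, against -2.25 and -1.46 in the control libraries, a difference of -1.75. CDK19 over CDK8 had ratios of -1.60 and -1.11 in the knockdown, against 0.40 and 0.28 in the control libraries, a difference of -1.69. The gaps between groups in these 2 pairs exceeded the replicate SD of 0.47 and 0.25 several times.

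**Figure D4:**
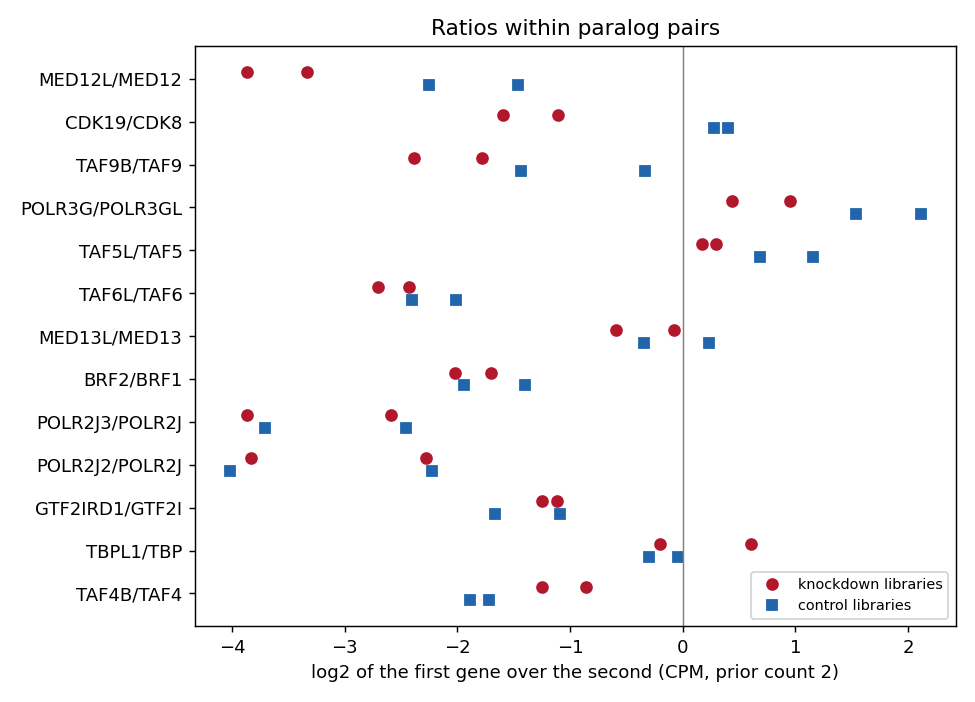
Log2 ratio of the first gene over the second (CPM with a prior count of 2, horizontal axis) in each knockdown and control library, for 13 paralog pairs ordered by the difference between groups. The ratio is lower in both knockdown libraries for the top 6 pairs and higher for TAF4B over TAF4 at the bottom.

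Among the other pairs, POLR3G over POLR3GL, alternative subunits of polymerase III of which POLR3G is known from stem and proliferating cells, had log2 ratios of 0.44 and 0.95 in the knockdown, against 1.54 and 2.11 in the control libraries. The difference was -1.13, and POLR3G itself overlapped between the groups. TAF9B over TAF9 differed by -1.20, with a replicate SD of 0.63, and TAF5L over TAF5 by -0.68, with an SD of 0.24. TAF6L over TAF6 had the groups just apart, with -2.43 and -2.70 in the knockdown and -2.01 and -2.40 in the control libraries. TAF4B over TAF4 was higher by 0.75, with -1.25 and -0.86 in the knockdown and -1.72 and -1.89 in the control libraries, and TAF4B itself overlapped between the groups. MED13L over MED13, GTF2IRD1 over GTF2I, BRF2 over BRF1, TBPL1 over TBP and both POLR2J pairs overlapped.

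Some genes were uneven within both groups. POLR2J2, POLR2J3 and the pseudogene POLR2J4 had 7.61 and 2.47 CPM, 6.09 and 2.40 CPM, and 4.56 and 1.12 CPM in the knockdown libraries, against 9.08 and 2.40 CPM, 7.72 and 3.02 CPM, and 3.76 and 1.47 CPM in the control libraries. These loci are copies of POLR2J on chromosome 7, and 98.5%, 57.9% and 41.6% of their 31-base words occur in other genes. In both groups their replicate 2 had the lower value. Whether shared sequence or the replicate number has a part in this was not tested. TAF9B, with 6.18 and 16.03 CPM in the knockdown and 11.3 and 28.4 CPM in the control libraries, and MED21, with 17.0 and 38.1 CPM in the knockdown and 13.9 and 34.3 CPM in the control libraries, were as uneven within each group. For these genes replicate 2 had the higher value in both groups. Of the 31-base words of TAF9B 5.91% occur in other genes, and of those of MED21 1.41%.

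Other genes of the 3 transcription systems were followed in lists chosen with earlier results of these data known. Of 66 tested, 11 were higher and 4 lower at an unadjusted p under 0.05, against 11.5% and 12.5% of all tested genes. DESeq2 called 3 higher and 2 lower, against 3.52% and 5.15% of all genes. By edgeR 1 was called higher and 0 lower. Its rise was known when the list was made, so neither this call nor its part in the other counts is a result about the list. The called gene was NOLC1, a nucleolar phosphoprotein that binds polymerase I and snoRNPs, with 492 and 467 CPM in the knockdown, against 62.6 and 105.7 CPM in the control libraries (log2 fold change 2.51, SE 0.30, edgeR adjusted p = 0.0264). The polymerase I subunit CD3EAP had 43.8 and 22.9 CPM in the knockdown, against 14.6 and 13.6 CPM in the control libraries, and was called by DESeq2. TCOF1, a nucleolar protein related to NOLC1, and UBTF, the upstream binding factor of ribosomal DNA, had log2 fold changes of 0.59 and 0.31, and the initiation factor RRN3, which makes polymerase I competent to start, of -0.56, none of them called.

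Of 41 partners of polymerase II, the elongin subunit TCEB3 had 133 and 132 CPM in the knockdown, against 65.0 and 74.4 CPM in the control libraries (log2 fold change 0.92, edgeR adjusted p = 0.0671; called by DESeq2). TBP, which serves all 3 polymerases, had 25.3 and 22.4 CPM in the knockdown and 21.6 and 24.8 CPM in the control libraries, and LARP7 had a log2 fold change of 0.01. Among 13 partners of polymerase III, MAF1, its general repressor, had 199.7 and 155 CPM in the knockdown, against 106 and 115 CPM in the control libraries (log2 fold change 0.68, not called). The TFIIIB subunits BRF1 and BDP1 had log2 fold changes of -0.13 and 0.22. Of the polymerase III products RN7SL1 and RMRP, the 2 with enough reads, neither differed beyond the spread, with log2 fold changes of 0.03 and -0.19. Per the labels total RNA was used with a TruSeq RNA kit, and how well that captures such short RNAs was not tested.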

How the data were processed

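The authors deposited raw read counts per gene symbol for 4 libraries, 2 knockdown and 2 control, in 1 table of 28930 genes; the counts are whole numbers with different totals per library. Per the submitters' processing notes, the tools were cutadapt, STAR 2.5.2b, HTSeq 0.6.1 and limma, with hg19 and GRCh37 as builds and no role stated for any; annotation, strand setting and filters were not given in the sources used here. As strand use is unknown, reads of genes that overlap on opposite strands cannot be told apart, and near-identical copies may share or lose reads. Per the labels' protocols, libraries were made with a TruSeq RNA kit.

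Counts were scaled by TMM, genes were kept by filterByExpr (minimum count 10, minimum total 15), and the groups were compared with edgeR 4.0.16 in R 4.3.3 by the quasi-likelihood test with no covariate. P-values were adjusted after Benjamini and Hochberg over all 13022 tested genes, and those under 0.05 were called. The common biological coefficient of variation was 0.246. The scripts were tested on simulated data. CPM values are TMM-scaled. Paralog ratios are log2 CPM differences with a prior count of 2.

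Alternatives were DESeq2 1.42.0, DESeq2 size factors, upper-quartile scaling, library size alone, no low-count filter, a mean of at least 5 CPM, the replicate number as a block, and each library left out. The labels do not say what a replicate number marks. The library titles carry numbers that are consecutive within each replicate number, with no meaning stated. Libraries were not treated as pairs in the main fit.

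The genes, their classes and the partner lists were chosen with earlier results of these data known. Some genes are not reported here, although they remain in the counts and medians; they are not drawn in the plots of single genes. Among the rest, named genes were every called gene, the 3 with the smallest p and the extremes of each class, both genes of each tested paralog pair, TRMT13 and NOLC1, and in each partner list the called genes or the 2 with the smallest p; the other genes are given to account for every member. Shared sequence was measured as the share of 31-base words of a gene's exons that occur in another gene of GENCODE 29, and opposite-strand overlap as the share of exon bases. Promoters are RefSeq's (GRCh38.p14), searched on both strands; the files' build is another, so no other coordinates are given. Gene-level protein sequences were not used here.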

Additional observations from a re-analysis of the deposited data

How the results depend on the processing

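With 2 libraries a group the spread of a gene is estimated with the help of all other genes, and when 1 library is left out the lone one is assumed to vary like the other group. The replicate number, taken as a block, moved calls most: members deviated together between libraries of equal number (r = 0.739 across 107 genes, 0.661 across all), and with the replicate block 27 members were higher and 14 lower, 38.3% against 40.1% of all genes (2517 higher, 2710 lower), and 13 partners higher and 8 lower. The block calls TAF9B (adjusted p = 0.0022), GTF2A1 (0.00012), GTF2A2 (0.0040) and GTF2IRD2 (0.0075), all lower in the knockdown, against 0.42, 0.28, 0.35 and 0.25 without it. With 2 libraries per group this does not establish pairs.

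Without a low-count filter 826 genes were higher and 1123 lower (10.5% in all). Of the members 10 were higher and 5 lower (13.8% in all), and of the partners 5 were higher and 2 lower. DESeq2 called 458 genes higher and 671 lower, 8 members higher, and 3 partners higher and 2 lower. Scaling by library size alone left 1 member lower, TAF10. Leaving out 1 library each gave 198 to 363 genes higher and 407 to 572 lower, 2 to 7 members higher and 0 to 2 lower, and 1 to 2 partners higher and 0 to 1 lower. Without control replicate 2, 4 members were called higher and 0 lower, and without knockdown replicate 1, 7 higher. The cause of these moves was not tested.

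Leaving out 1 library each gave class medians of 0.30 to 0.46 for the Mediator head, -0.35 to -0.16 for the kinase module, -0.074 to 0.20 for the tail, 0.18 to 0.41 for polymerase II general factors, -0.10 to 0.51 for polymerase III general factors, 0.15 to 0.56 for polymerase III subunits, -0.058 to 0.34 for SL1 -0.092 to 0.041 for the TAFs of TFIID and SAGA, -0.15 to 0.16 for the Mediator middle and scaffold, -0.64 to 0.27 for the TFII-I family, 0.034 to 0.20 for polymerase II subunits and 0.21 to 0.40 for polymerase I subunits. Paralog differences kept their direction with a prior count of 0.5.

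Of 71 named genes, 52 kept 1 direction under every alternative. MED13 turned to -0.00362 with upper-quartile scaling and -0.00645 with the block, and RN7SL1 to -0.027 with the block. The others turned only with a library left out, and their log2 fold changes then ran between -0.10 and 0.15 (MED12), -1.18 and 0.92 (POLR2J4), -0.10 and 0.17 (POLR1A), -0.044 and 0.27 (TAF1D), -1.16 and 0.63 (GTF2IRD2B), -0.20 and 0.67 (POLR3G), -1.19 and 1.06 (POLR2J2), -1.14 and 0.48 (POLR2J3), -0.17 and 0.11 (TAF4B), -0.40 and 0.46 (TAF5), -0.28 and 0.094 (TAF6), -0.0097 and 0.75 (TAF9), -0.055 and 0.14 (TBP), -0.11 and 0.32 (GTF2I), -0.35 and 0.061 (BRF1), -0.13 and 0.61 (CDK8), and -0.78 and 0.98 (RMRP). For MED13 and RN7SL1 those ranges were -0.35 to 0.32 and -0.53 to 0.45.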
